A study of Mus musculus with 2 samples.

Results

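Co-stimulatory and inhibitory receptors are surface proteins that raise or lower the response of a T cell whose antigen receptor is engaged. The 7 genes described here, Cd28, Ctla4, Icos, Pdcd1, Lag3, Havcr2 and Tigit, were taken by name from the GENCODE vM21 basic annotation of the mm10 mouse genome, which holds 21755 protein-coding genes outside the Y chromosome and the mitochondrial genome. All 7 were found. For each gene the peaks and footprints in the gene body and 20 kb on each side, its span, were collected, and Cd28, Ctla4 and Icos, which are neighbours on chromosome 1, were also treated as 1 interval of 323.5 kb.

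DNase-seq, in which nuclei are digested with DNase I and the cut ends are sequenced to map accessible chromatin, had been run on whole thymus of female B6CASTF1/J mice, the F1 hybrid of the C57BL/6J and CAST/EiJ strains, aged 18 to 20 months and not described as treated. There were 2 libraries in 1 group, replicates 1 and 2. Both cite a single donor record but have their own biosample records, which leaves it unstated whether they are separate animals, and values after ± may be technical spread. No other age, sex, tissue or treatment is compared. Each library has a shorter peak list (50648 and 49872 peaks in replicates 1 and 2) and a longer one (77453 and 79004), with 1 signal value per peak on a scale that is not stated, and a list of footprints (223227 and 247677), short protected stretches that a bound protein can leave in accessible DNA. Values are from the shorter list unless the longer is named, and pairs of values are given as replicate 1, then replicate 2. With 1 group no test between groups exists, and comparisons are read against the spread between the libraries and against all protein-coding genes.

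CD28 is the receptor for CD80 and CD86 that provides the classical second signal of T cell activation, and ICOS is a relative of it that binds ICOSL. CTLA-4 competes for the same ligands as CD28 and restrains activation, while the proteins encoded by Pdcd1 (PD-1), Lag3, Havcr2 (TIM-3) and Tigit are inhibitory receptors that rise on activated, regulatory or exhausted T cells. In the thymus, CD28 is carried by most developing T cells and takes part in the selection of regulatory T cells, whereas the inhibitory receptors are restricted to smaller populations. In a bulk tissue, a weak peak from a site open in few cells and one from a site less open in many cells cannot be told apart.

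The reference bases at 4 start sites and 4 other sites are printed first, because the results turn on which of them were accessible and which of their bases were protected. Capitals mark bases inside a footprint of both libraries. Of the 7 start sites, Icos, Pdcd1 and Lag3 had such bases in the upstream part of their start-site peak, and Havcr2 is shown as the gene with no peak there. The upstream parts differ in length, with 57 bases at Cd28, 84 at Ctla4 and 187 at Pdcd1. As a whole, the Ctla4 start-site peak held 4 footprints in each library, and that of Icos 2 and 3. The share of all promoter peaks with such bases was not computed, so this choice does not set the printed genes apart. The sequences are of the C57BL/6J reference, GRCm38 (mm10), and no CAST/EiJ allele was examined. Each start-site sequence ends at the base before the annotated start and is written in the direction of the gene.
Icos, chr1:60977741-60977926, plus strand: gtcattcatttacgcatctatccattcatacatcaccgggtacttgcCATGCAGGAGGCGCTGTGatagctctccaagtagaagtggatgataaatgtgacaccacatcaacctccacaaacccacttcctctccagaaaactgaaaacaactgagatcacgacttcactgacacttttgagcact
Pdcd1, chr1:94052554-94052740, minus strand: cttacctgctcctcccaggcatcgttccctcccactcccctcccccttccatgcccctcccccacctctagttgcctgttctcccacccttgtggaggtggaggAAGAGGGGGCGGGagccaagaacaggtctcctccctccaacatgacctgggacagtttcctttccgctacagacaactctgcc
Lag3, chr6:124911706-124911880, minus strand: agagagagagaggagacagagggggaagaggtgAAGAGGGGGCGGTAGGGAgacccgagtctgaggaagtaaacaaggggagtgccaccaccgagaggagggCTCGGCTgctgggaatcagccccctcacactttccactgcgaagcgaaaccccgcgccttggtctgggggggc
Havcr2, chr11:46454735-46454934, plus strand, no peak: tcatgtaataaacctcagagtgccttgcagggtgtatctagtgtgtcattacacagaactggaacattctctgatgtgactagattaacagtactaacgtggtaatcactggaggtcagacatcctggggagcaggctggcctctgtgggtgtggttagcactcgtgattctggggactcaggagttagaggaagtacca
Intergenic peak between Cd28 and Ctla4, chr1:60823041-60823220, plus strand: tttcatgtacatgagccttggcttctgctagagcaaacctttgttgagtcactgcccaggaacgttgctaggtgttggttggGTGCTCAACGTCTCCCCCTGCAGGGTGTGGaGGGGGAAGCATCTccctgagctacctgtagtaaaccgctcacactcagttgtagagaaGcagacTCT
Ctla4 intron peak, chr1:60910901-60911080, plus strand: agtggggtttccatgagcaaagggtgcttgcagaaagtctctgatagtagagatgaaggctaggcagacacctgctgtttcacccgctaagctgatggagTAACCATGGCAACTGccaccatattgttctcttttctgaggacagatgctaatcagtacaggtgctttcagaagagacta
Peak beyond the end of Pdcd1, chr1:94034961-94035220, plus strand: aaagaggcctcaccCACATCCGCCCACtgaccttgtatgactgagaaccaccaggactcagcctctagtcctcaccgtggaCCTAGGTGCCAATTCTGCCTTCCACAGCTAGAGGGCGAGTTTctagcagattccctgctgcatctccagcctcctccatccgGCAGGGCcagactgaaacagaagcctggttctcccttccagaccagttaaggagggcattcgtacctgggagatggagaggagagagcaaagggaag
Peak between Lag3 and Cd4, chr6:124903621-124903860, plus strand: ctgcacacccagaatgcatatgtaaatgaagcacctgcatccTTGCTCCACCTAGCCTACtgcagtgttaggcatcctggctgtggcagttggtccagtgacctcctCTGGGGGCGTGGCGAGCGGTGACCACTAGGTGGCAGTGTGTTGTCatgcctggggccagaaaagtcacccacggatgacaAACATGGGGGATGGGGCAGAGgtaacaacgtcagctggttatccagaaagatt

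The start sites of Pdcd1 and Lag3 shared a run of 13 bases, GAAGAGGGGGCGG, in the same direction. It began at base 104 of the Pdcd1 sequence and at base 33 of the Lag3 sequence, and 12 of its 13 bases lay in footprints of both libraries at each gene. It was the longest run common to any of the 21 pairs of the 7 start-site sequences, counting both strands, and the next longest, between Icos and Pdcd1, had 10 bases and none of them in footprints of both libraries in the Icos sequence. Among all 21755 protein-coding genes, 4 held this run on either strand in the 200 bases before the start site (0.0184%): Pdcd1, Lag3, Kif1b and Dcaf12l1. In windows of 200 bases at the centres of the peaks of each library, 0.0138% and 0.0120% held it. The run was taken from Pdcd1 and Lag3, so these genes hold it by construction. How often other pairs of genes share a run as long was not computed. The comparison was made after the sequences had been seen, and it describes letters, not a bound protein.

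Of 18 consensus sequences of factor families searched on both strands, GGGCGG, the core recognised by SP and KLF proteins, matched inside this run at base 111 of Pdcd1 and base 40 of Lag3. It is a frequent sequence, present in 29.2% and 29.0% of peak windows of the length of the Pdcd1 sequence. The CTCF core AGGNGGC overlapped the same letters in both genes, at bases 108 and 37, so the 2 matches there are not separate. AGGNGGC also matched the footprinted bases of the Icos start site, at base 53, where 32.7% and 30.0% of peak windows of that length held it. No searched sequence touched a footprint of either library in the upstream part of the Cd28 start-site peak. That part is 57 bases long, and 7 of them lay in a footprint of 1 library, which left little room for a match. The whole Cd28 start-site peak, which reaches past the start, held 1 and 4 footprints. Matches do not show that a factor was bound.

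Promoter accessibility separated the 7 genes into 3 kinds. A peak within 1 kb of a start site, called a promoter peak, was present in both libraries at Cd28, Icos, Lag3, Pdcd1 and Ctla4, in replicate 2 alone at Tigit, and in neither library at Havcr2. That is 5 of 7 genes open in both libraries, against 54.0% of all protein-coding genes, and 1 of 7 open in neither, against 43.0%, and 7 genes are too few for these shares to set the group apart. The signal of the strongest promoter peak ranked these 5 genes in the same order in both libraries, from Cd28 to Ctla4, and Tigit came after them in replicate 2.

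Cd28 (chr1:60716800-60773359, plus strand) had the most accessible start site of the group. Its peak at chr1:60746301-60746500 covered the start of the only basic transcript and had a signal of 4.00 and 4.81 (4.41 ± 0.576, SD, n = 2), with the same bounds in both libraries. It stood at percentiles 35.6 and 47.8 of the genes that have a promoter peak, below the median promoter, at 5.70 and 5.09. With the longer lists, whose median promoters were 5.13 and 4.54, Cd28 stayed below the median in replicate 1 and was above it in replicate 2, at percentiles 41.0 and 52.4. The gene record of Cd28 starts 29558 bp further upstream, where neither list of either library had a peak within 1 kb.

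Icos (chr1:60977927-61000320, plus strand), the other co-stimulatory receptor, had a promoter signal of 2.27 and 2.31 (2.29 ± 0.0257, n = 2), the closest match between the libraries among the 5 genes. Lag3 (chr6:124904361-124911705, minus strand) followed with 1.94 and 2.14 (2.04 ± 0.140, n = 2). The ranges of Icos and Lag3 did not overlap, although the gap between their means was small beside the spread of peak pairs given below. Pdcd1 (chr1:94038305-94052553, minus strand) had 1.09 and 1.75 (1.42 ± 0.464, n = 2). Ctla4 (chr1:60887000-60915832, plus strand) had 0.949 and 1.25 (1.10 ± 0.210, n = 2). The values of Pdcd1 and Ctla4 overlapped, so their order is not separated by these libraries. Both inhibitory receptors lay low among genes with a promoter peak, at percentiles 7.54 and 17.5 for Pdcd1 and 5.93 and 11.8 for Ctla4.

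Tigit (chr16:43648867-43664146, minus strand), whose product binds CD155 on partner cells, had the weakest promoter peaks of the group. In the longer lists its start-site peaks stood at percentiles 19.2 and 28.3 of all peaks. Replicate 2 had a peak of 0.541 over the start site, at percentile 1.97 of genes with a promoter peak. Replicate 1 had none in the shorter list and 3 in the longer, the strongest of 0.519 at 0.39 kb upstream and 1 of 0.501 over the start site itself. With the longer lists Tigit was therefore open in both libraries, which makes 6 of 7 genes, against 58.5% of all protein-coding genes.

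Havcr2 (chr11:46454935-46481255, plus strand), which encodes TIM-3, had no promoter peak in either list of either library, as did 37.0% of protein-coding genes with the longer lists. The deposited q-values were read as well, but they come from the same libraries as the peak lists and are no independent support. No base within 1 kb of its start site, nor anywhere in its gene body, had a q-value below 0.05 in either library. Of protein-coding genes, 61.7% had such a base near a start site in each library, close to the 60.8% and 60.7% with a longer-list promoter peak. The lowest q at the other start sites ran from 4.12e-18 (Cd28, replicate 1) and 2.16e-25 (Cd28, replicate 2) to 0.00296 and 0.000176 (Tigit).

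**Figure D1:**
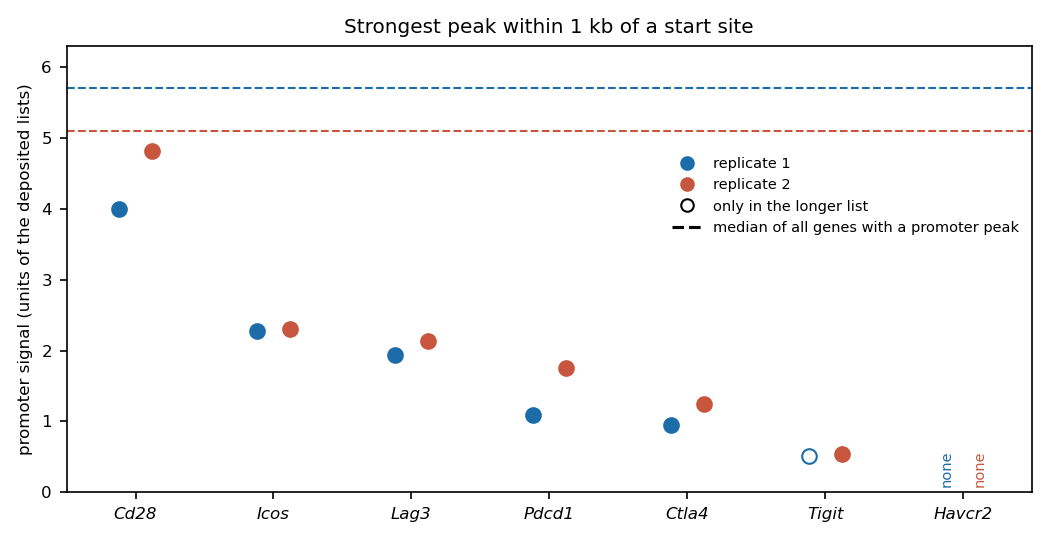
Signal of the strongest peak within 1 kb of a start site (y axis, units of the deposited lists) for each receptor gene, with 1 point per library. Open points are in the longer list only, the dashed lines are the medians of all genes with a promoter peak in the shorter list (5.70 and 5.09), and every receptor promoter with a peak lies below that line of its library.

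The 7 start sites also shared a low CpG content, which the choice of genes did not use. The ratio of observed to expected CpG in the 1 kb around the start ran from 0.173 at Tigit to 0.309 at Icos, and the median of all protein-coding genes was 0.576. Between 18.7% and 32.2% of genes had a lower ratio than the members did. Of the 2941 protein-coding genes within the members' range, 494 (16.8%) had a promoter peak in both libraries, with a median signal of 2.84. This range was set from the members' own values and carries no test. Within the group the ratio did not order the signals: Havcr2 at 0.203 had no peak, and Cd28 at 0.208 had the highest signal.

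**Figure D2:**
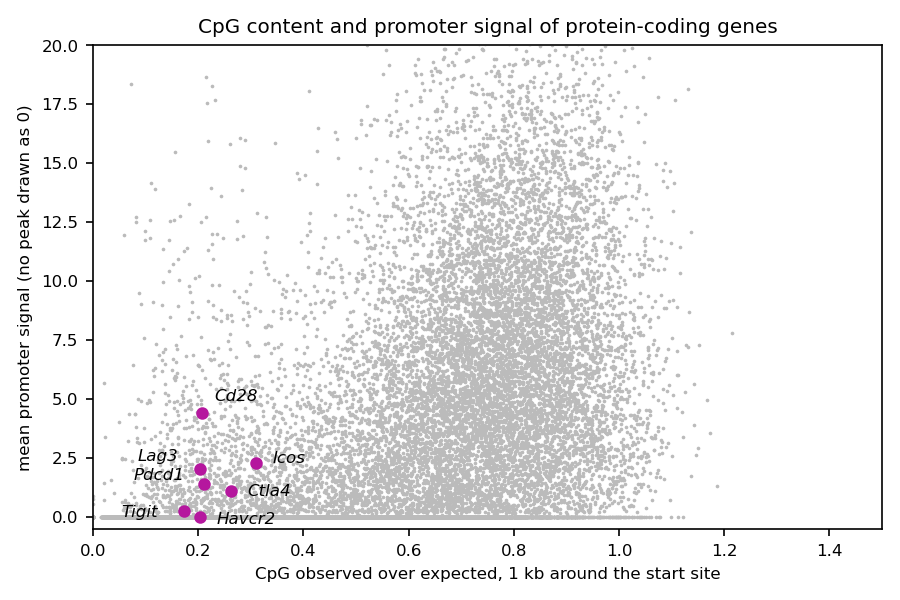
Mean promoter signal of the 2 libraries (y axis, deposited units, no peak drawn as 0) against the observed over expected CpG ratio in the 1 kb around the start site (x axis), with protein-coding genes in grey and the 7 receptor genes in purple. The receptor genes lie between 0.173 and 0.309 on the x axis, and 158 genes beyond the axes are not drawn.

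The Cd28, Ctla4 and Icos interval held 14 and 12 peaks, or 4.33 and 3.71 per 100 kb, close to the median of protein-coding gene spans at 3.99 and 3.59. Its longer lists held 25 peaks in each library, of which 21 overlapped a peak of the other library in each. By the mean of both libraries its strongest peak after the Cd28 promoter lay between genes at chr1:60823041-60823220, 76.77 kb from the Cd28 start site and outside the 20 kb flanks of every member. The signal there was 3.76 and 3.35 (3.56 ± 0.287, n = 2), with identical bounds in both libraries, which is stronger than the promoters of Ctla4 and Icos. Of its 180 bases, 47 lay in footprints of both libraries, most of them in the capital run in the middle of the printed sequence. An AP-1 match, TGANTCA, at base 45 touched a footprint of 1 library, and 4.21% and 4.39% of peak windows of that length held this sequence.

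Within the interval the 3 genes differed in where their peaks lay. At Cd28, 2 peaks beyond the end of the gene were found in both libraries. The peak at chr1:60777001-60777240, in an exon of the long noncoding RNA Gm11579, had 2.22 and 3.20. The peak starting at chr1:60781741 in replicate 1 and ending at 60781980, within 1 kb of the Gm11579 start site and in an intron of the noncoding RNA 2310016D23Rik, had 2.23 and 3.44. Inside Cd28, peaks of 1.73 at chr1:60755512-60755684 and 2.11 at chr1:60758345-60758489 were in the shorter list of replicate 2 alone, and both overlapped peaks of the longer list of replicate 1.

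At Ctla4 the start site was not the strongest site of the gene. The intronic peak at chr1:60910901-60911080, 1.82 kb downstream of the nearest start site, had a signal of 1.76 and 1.68 (1.72 ± 0.0611, n = 2), above the promoter peak in both libraries. Its printed sequence holds 15 bases in footprints of both libraries, and the E-box CAGGTG matched at 2 places, 1 of which touched a footprint of 1 library. Of peak windows of that length, 21.6% and 22.4% held this sequence. A peak at 7.55 kb, beyond the end of the gene, had 1.34 and 1.52, and a weaker one 28.72 kb upstream had 1.03 and 1.09. The shorter list of replicate 1 alone held peaks of 1.43 at 40.41 kb upstream, 0.904 at 1.34 kb upstream and 0.734 at 2.61 kb downstream, and that of replicate 2 alone held 1 of 0.894 at 26.01 kb upstream. Each of these 4 overlapped a peak in the longer list of the other library. The gene record begins 22025 bp upstream of the first basic start site, and counting the start sites of the comprehensive annotation changed no promoter call of the 7 genes.

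Icos had few peaks. Its promoter peak was its only one in the shorter list of replicate 2, and replicate 1 had 2 more. A peak of 1.40 at chr1:60961201-60961360, 16.65 kb upstream, had no counterpart in either list of replicate 2. The other, of 0.465 at 38.94 kb downstream, overlapped a longer-list peak of replicate 2.

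**Figure D3:**
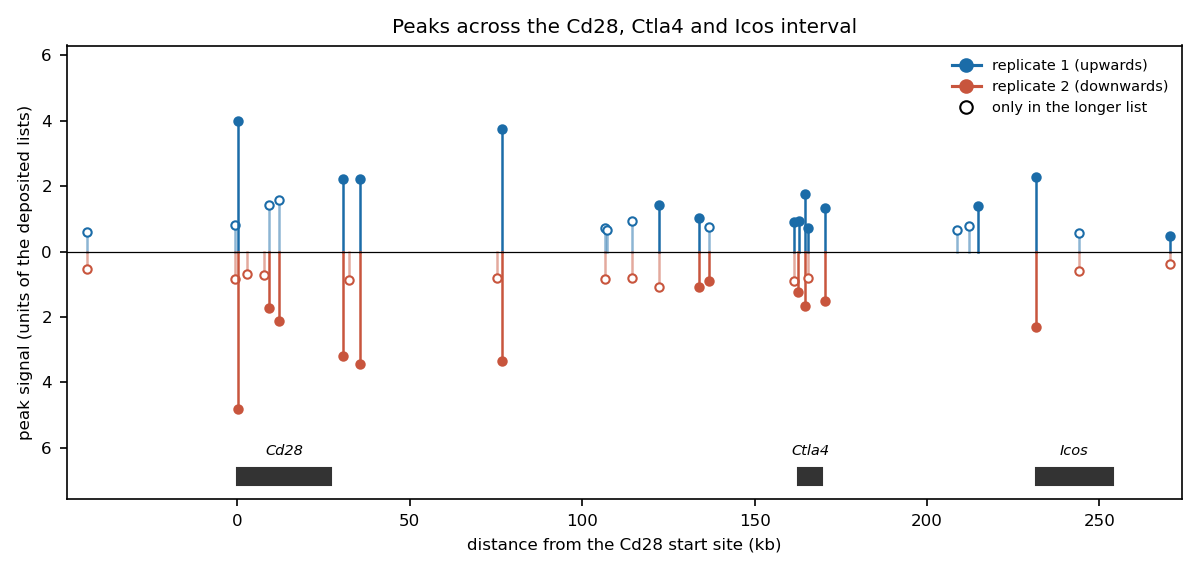
Signal of every peak of the longer list in the Cd28, Ctla4 and Icos interval (y axis, deposited units, replicate 1 upwards and replicate 2 downwards) against the distance from the Cd28 start site (x axis, kb). Open points are peaks that overlap none in the shorter list of their own library, bars are the genes from their first basic start site, and the intergenic peak at 76.77 kb has 3.76 and 3.35.

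Pdcd1 was accessible mainly beyond its end. A pair of intergenic peaks lay 17.1 to 17.5 kb downstream of the start site, between Pdcd1 and the sialidase gene Neu4. The first, at chr1:94035261-94035620 in replicate 1, had 3.67 and 5.48 (4.57 ± 1.28, n = 2), and the second, at chr1:94034961-94035180 in replicate 1, had 4.08 and 3.44 (3.76 ± 0.454, n = 2). Which of the 2 was stronger differed between the libraries, and both exceeded the promoter signal of 1.09 and 1.75 in each library. In the second peak 62 of the 260 printed bases lay in footprints of both libraries, and a GGGCGG match on the minus strand at base 20 touched one of them, where 33.4% of peak windows of that length in each library held this sequence. In the first peak, 1 of 2 RUNX matches (TGTGGT) and the only NFAT match (TGGAAA) touched a footprint of both libraries. Peak windows of 300 bases held these sequences in 21.2% and 21.8% of cases for RUNX and in 19.1% and 18.8% for NFAT. RUNX proteins act throughout T cell development, and NFAT proteins carry calcium signals from the antigen receptor. Neu4 had no promoter peak in either list. The Pdcd1 span held 3 peaks in each shorter list and 6 in each longer list, all of them shared.

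The span of Lag3, a receptor related in structure to CD4, was the richest of the 7 in accessible sites. It held 11 and 17 peaks, or 23.2 and 35.9 per 100 kb, and its mean density ranked at percentile 99.1 of protein-coding genes. Footprints numbered 63 and 77, at percentiles 99.0 and 98.7 per 100 kb. Part of this belongs to the neighbours, since 4 of 11 and 5 of 17 peaks lay at promoters of Cd4, Ptms or Mlf2. Another 3 in each library lay in introns of Cd4 or of the noncoding RNA A230083G16Rik, and 1 lay at the Lag3 promoter. The remaining peaks, 3 and 8, were intergenic. Without peaks near start sites of other protein-coding genes the mean count of peaks was 9.5 instead of 14, and within the Lag3 gene body alone it was 1.5. The mean count of footprints was 70 in the span, 42.5 with flanks of 10 kb and 0.5 within the gene body alone, so nearly all lay outside the gene.

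The strongest site of the Lag3 span was intergenic, and it was also the strongest of all 7 spans in replicate 1 and, narrowly, in replicate 2. It lay 7.96 kb downstream of the Lag3 start site, just past the end of the gene on the side of Cd4, at chr6:124903641-124903860 in replicate 1, with a signal of 16.0 and 12.3 (14.1 ± 2.64, n = 2). Only 1.05% and 2.87% of the peaks of each list were as strong. Of the 240 printed bases, 84 lay in footprints of both libraries, and the CTCF core AGGNGGC matched at base 135 inside the longest capital run. Peak windows of that length held this core in 37.1% and 34.7% of cases. CTCF is known as the main sequence-specific organiser of chromatin loops, and its binding was not measured here.

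Closer to Cd4, the co-receptor gene that follows Lag3, a peak at 11.1 kb from the Lag3 start had 5.57 and 8.77 (7.17 ± 2.26, n = 2). Peaks in a Cd4 intron had 3.70 and 4.44, and 2.37 and 2.20. The Cd4 promoter itself had a shorter-list peak of 1.79 in replicate 2 alone, with longer-list values of 1.38 and 1.79. Cd4 is known to be controlled by a silencer in its first intron and an enhancer upstream of its start site, and coordinates of those elements were not used here. On the other side, the promoters of Ptms, which encodes parathymosin, reached 5.04 and 3.38, and those of Mlf2 15.0 and 11.2. All 11 peaks of replicate 1 were shared, and 6 of the 17 peaks of replicate 2 had no counterpart in the shorter list of replicate 1. These 6 ran from 0.470 to 1.96 and included the Cd4 promoter, and 3 of them overlapped a longer-list peak of replicate 1.

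Havcr2 and Tigit had few peaks. The Havcr2 span held 3 and 1 peaks, and its strongest, 10.3 and 12.2 (11.3 ± 1.36, n = 2), was the promoter of Med7, a Mediator subunit gene 18.02 kb upstream. No peak of either list lay in the Havcr2 gene body. Replicate 1 alone had shorter-list peaks of 0.993 at 17.17 kb and 0.975 at 6.67 kb upstream. The latter overlapped a longer-list peak of 0.731 in replicate 2, and the former had no counterpart. Without peaks near start sites of other protein-coding genes the mean count of the span was 0.5 instead of 2, and the peak that remained, of 0.975, lay within 1 kb of the start site of the noncoding RNA 2310031A07Rik. The Tigit span held 0 and 1 peaks, the 1 at its start site, and its longer lists held nothing outside the promoter window in either library. The start of Zbtb20 lies outside the span, although that gene reaches into it.

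**Figure D4:**
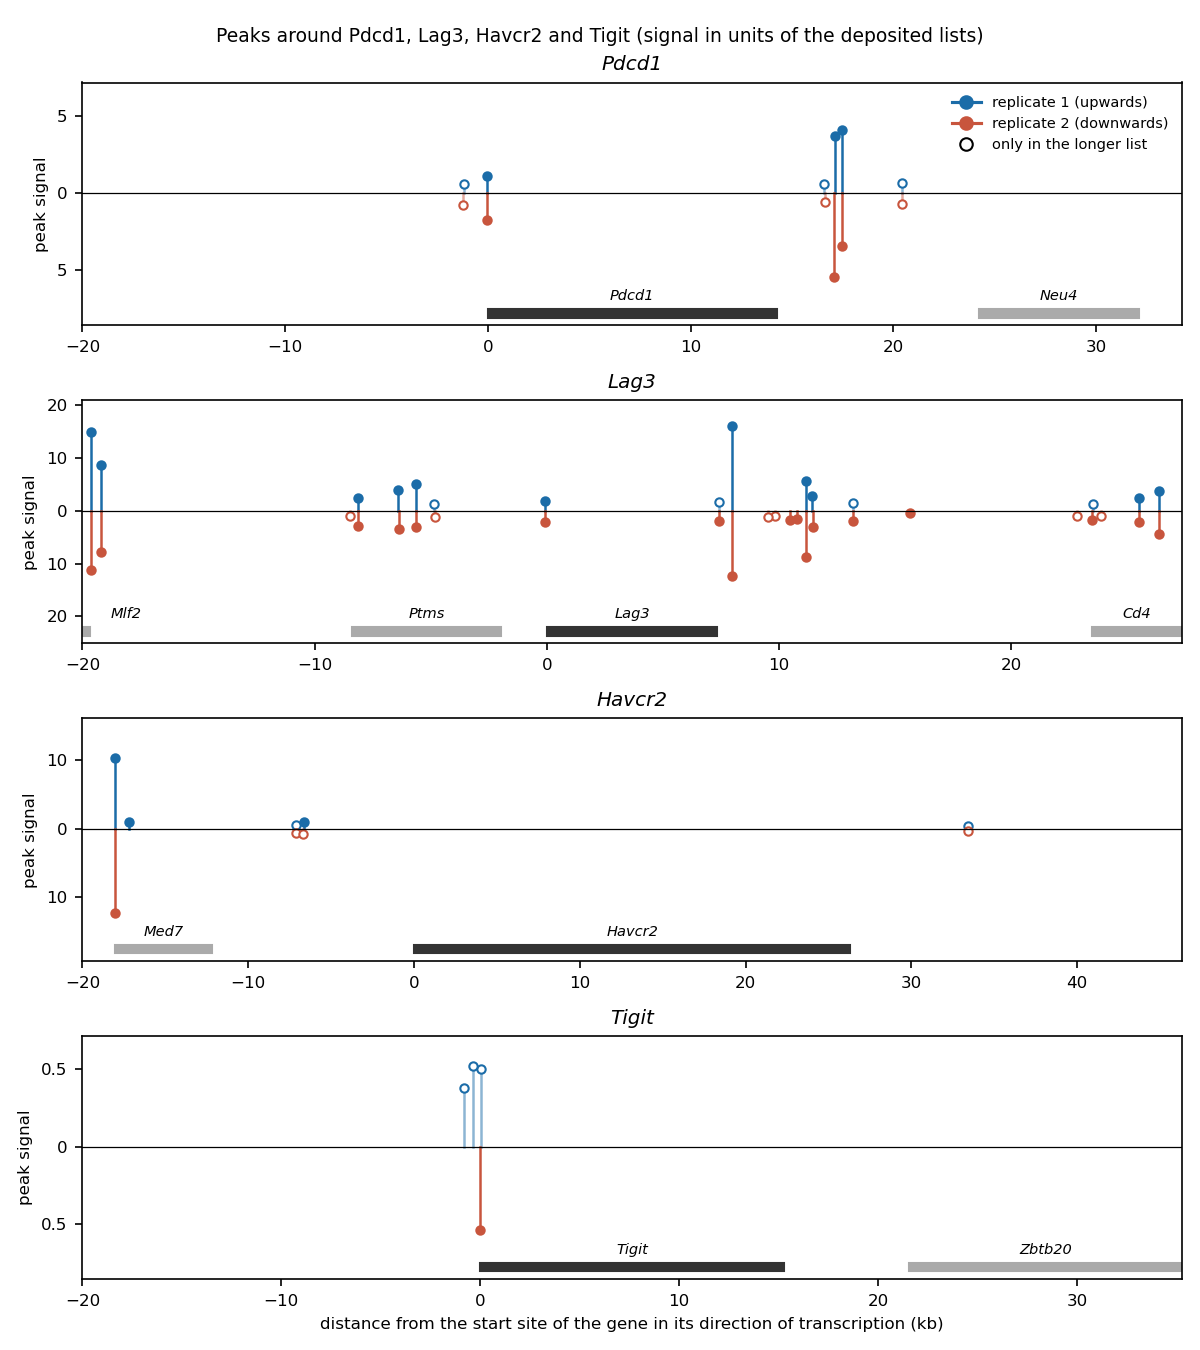
Signal of every peak of the longer list around Pdcd1, Lag3, Havcr2 and Tigit (y axis, deposited units, replicate 1 upwards and replicate 2 downwards, with a different scale in each panel) against the distance from the start site in the direction of transcription (x axis, kb). Dark bars are the receptor genes and grey bars protein-coding neighbours, and the Lag3 panel holds 15 and 23 peaks where the Tigit panel holds 3 and 1.

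Per 100 kb, peak density ranked Lag3 first, then Ctla4 (10.2 and 7.26, percentile 78.6 of the mean), Pdcd1 (5.53 in both, percentile 62.4), Cd28 (3.11 and 5.18, percentile 52.6), Icos (4.81 and 1.60, percentile 45.0), Havcr2 (4.52 and 1.51, percentile 43.5) and Tigit (0 and 1.81, percentile 25.7). The values of Cd28, Icos and Havcr2 overlapped, and so did those of Havcr2 and Tigit, so these neighbours are not separated. Cd28, first by promoter signal, stood behind Lag3, Ctla4 and Pdcd1 by density. The median span of all protein-coding genes held 14 footprints in each library. Cd28 had 17 and 22 footprints in its span, Pdcd1 14 and 20, Havcr2 12 and 14, Ctla4 20 and 14, Icos 8 and 6, and Tigit 3 and 5. These are counts over spans of different length. Per 100 kb Cd28 had 17.6 and 22.8, on either side of the medians of 18.1 and 18.5.

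**Figure D5:**
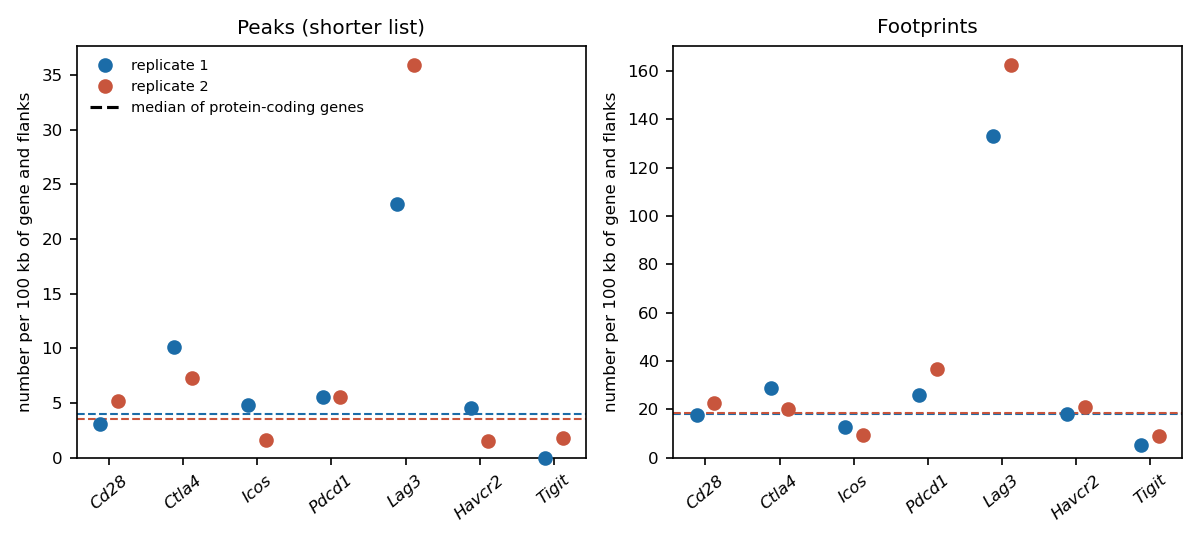
Number of shorter-list peaks (left) and footprints (right) per 100 kb of gene and flanks for each receptor gene (y axis), with 1 point per library and dashed lines at the median of protein-coding genes. Lag3 stands at 23.2 and 35.9 peaks, and the other 6 genes lie at or below 10.2.

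Across all 7 spans there were 30 and 33 distinct peaks, of which 23 in each library overlapped a peak of the other, or 76.7% and 69.7%. The corresponding shares over all peaks were 79.4% and 80.7%, and the exact binomial 95% intervals of the members' shares, 57.7% to 90.1% and 51.3% to 84.4%, include them. They cover counting error only. Against the longer list of the other library, 28 of 30 and 30 of 33 peaks were found again. Of the longer lists, 44 of 49 and 44 of 55 peaks in the spans (89.8% and 80%) were shared, against 76.0% and 74.5% of all longer-list peaks. The same kind of interval, 77.8% to 96.6% and 67.0% to 89.6%, excludes the share of all peaks in replicate 1 and includes it in replicate 2. It treats peaks as independent, although 15 of the 49 and 23 of the 55 lay in the Lag3 span alone. The overlaps of the 2 libraries are also largely the same ones, counted from each side. With the shorter lists going the other way, these intervals do not set the members apart. Of 137 and 158 footprints, 57.7% and 46.8% overlapped one of the other library, against 57.0% and 51.4% of all footprints.

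Where a peak pair existed, replicate 2 tended to be the stronger of the pair at these genes. The 5 promoter peaks present in both libraries were all higher in replicate 2, whereas 33.0% of protein-coding genes with a promoter peak in both libraries were. Over all 37494 pairs of matching peaks the median log2 ratio of replicate 2 to replicate 1 was -0.17. After this median was subtracted, the promoter ratios were 0.20 at Icos, 0.31 at Lag3, 0.44 at Cd28, 0.57 at Ctla4 and 0.85 at Pdcd1. The central 95% of all pairs ran from -0.99 to 0.69, so that Pdcd1 alone among the promoters lay outside it. Of the 23 pairs in the 7 spans, 18 were above 0 on this scale, with a median of 0.31, and 5 lay outside that range, all on the higher side: the 2 peaks beyond the end of Cd28, the first distal peak and the promoter of Pdcd1, and the peak 11.1 kb from the Lag3 start.

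Promoter signals of cell type markers differed between the libraries as well, and are given here as deposited. Of all protein-coding genes with a promoter peak in both libraries, 33.0% were higher in replicate 2, so a lower value there was the usual case. Of 10 T cell markers, 9 had a promoter peak in both libraries and 8 of these were higher in replicate 2, and the summed signal of the list was 58.7 and 65.5. For thymic epithelium the sum over 6 markers was 6.24 and 4.05, with Foxn1, Psmb11, Krt5 and Krt8 at 0, and both open members, Aire (4.60 and 2.92) and Epcam (1.64 and 1.14), were lower in replicate 2. For fibroblasts the sum over 4 markers was 5.75 and 3.18, with Col1a2 and Dcn at 0, and both Col1a1 (3.82 and 2.13) and Pdgfra (1.93 and 1.04) were lower in replicate 2. Centred on the median of all pairs, the median log2 ratio was 0.33 for T cell markers, -0.42 for thymic epithelium and -0.69 for fibroblasts. Both open regulatory T cell markers were also lower in replicate 2 as deposited, with a centred median of 0.03. The single open markers of natural killer cells (0.18 centred) and of endothelium (0.52 centred) were higher. The part of cell composition in the higher receptor signals of replicate 2 was not tested.

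Regulatory T cells and natural killer cells are known to carry several of these receptors. Of 4 regulatory T cell markers, Ikzf2 (1.93 and 1.83) and Ikzf4 (1.12 and 0.972) had promoter peaks in both libraries, and Foxp3 and Il2ra had none in the shorter lists. Of 4 natural killer cell markers, Klrd1 had one in both (0.474 and 0.476), Eomes in replicate 1 alone (1.02), and Ncr1 and Klrb1c in neither. B cell markers were open in both libraries in 0 of 5 cases and myeloid and dendritic markers in 0 of 6. Summed over the lists, B cell markers had 0 and 1.30 and myeloid markers 1.18 and 0. These zeros hold for the shorter peak lists only. In the longer lists 2 of 5 B cell markers were open in both libraries, Cd79b (0.770 and 1.28) and Ms4a1 (0.259 and 0.554). So were 2 of 6 myeloid markers, Itgam (1.18 and 1.29) and Lyz2 (0.421 and 0.528), and the natural killer marker Eomes (1.02 and 0.639). Foxp3 (0.718) and Il2ra (0.724) had a peak in the longer list of replicate 2 alone. The T cell list was led by Lat (9.88 ± 0.0665, n = 2), Cd3g (8.95 ± 0.700, n = 2) and Cd8b1 (8.70 ± 0.0997, n = 2), so that markers of the main cell type of a thymus were accessible. No marker of adipocytes (3 genes) or hepatocytes (3 genes) had a promoter peak, and of 3 endothelial markers Pecam1 alone did (2.41 and 3.07).

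The 7 genes sit within longer lists of the same pathways. Among 11 co-stimulatory receptors, 6 were open in both libraries, 1 in a single library and 4 in neither. Cd27, a receptor of the TNF receptor superfamily, led by the mean of both libraries with 4.66 and 4.60, followed by Cd28, which was the higher of the 2 in replicate 2, and Slamf1 (2.51 and 2.67). Tnfrsf4, Tnfrsf9 and Cd40lg, which are induced on activated T cells, and Tnfrsf25 were the 4 without a peak in the shorter lists. Tnfrsf25 had one in the longer list of replicate 1 alone (0.859). Among 13 inhibitory receptors, 8 were open in both, 2 in a single library and 3 in neither. Vsir, which encodes the checkpoint protein VISTA, led with 4.76 and 5.09, then Cd160 with 2.68 and 2.76, then Lag3, while Havcr2, Cd244a and Klrg1 had no peak.

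Ligands on partner cells were open in both libraries in 9 of 15 cases and in neither in 6. Cd274, which encodes the PD-1 ligand PD-L1, had 6.25 and 6.89, above every receptor in either list. It was followed by Lgals9 (2.36 and 2.60), which encodes a galectin described as a TIM-3 ligand, and Pvr (2.39 and 2.09), which encodes the TIGIT ligand CD155. Both CD28 ligands, Cd80 and Cd86, had no promoter peak in the shorter lists, nor had Pdcd1lg2, Tnfsf18, Cd70 or Fgl1. In the longer lists Cd86 had one in replicate 2 alone (0.385) and Tnfsf18 in replicate 1 alone (0.358). All 13 signalling proteins that act below CD28-family receptors were open in both libraries, led by the adaptor Grb2 (13.6 ± 2.30, n = 2), the phosphoinositide 3-kinase subunit Pik3r1 (11.2 ± 1.64, n = 2) and the kinase Lck (8.44 ± 0.733, n = 2). The median promoter signal, with absent peaks at 0, was 1.09 for co-stimulatory receptors, 1.10 for inhibitory receptors, 1.05 for ligands and 4.39 for signalling proteins. The share open in both was 54.5%, 61.5%, 60% and 100%, beside 54.0% of all protein-coding genes.

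By rank of peak density, promoter signal and footprint number, each as the mean of both libraries, the gene most like each member among all protein-coding genes was found, with its likeness given as the sum of the 3 rank differences in percentile points. Cd28 was nearest to Ppp3cb (3.28), a catalytic subunit of calcineurin, followed by Lpin2, Tubgcp2, Dbt and Luzp1. Ctla4 was nearest to Lgi4 (0.830), then Rab33a, Cgas, Pgf and Hoxa10. Icos was nearest to Slc43a3 (1.67), then Mfsd4b1, Prdx4, Cd200 and Uprt. For Pdcd1 these were Snx22 (2.10), Zfp27, Pga5, Rnf11 and St3gal6. For Lag3 they were Mrpl53 (0.565), Dlg4, Efemp2, Hist1h2af and Pvr. For Tigit they were Gm14399 (1.18), Rab38, Lrrc4, Trim12a and Msantd3, and for Havcr2, Olfr986 (0.248), Fabp12, Zc2hc1b, Arhgef18 and Clcn1. None of the 7 members was among the nearest genes of another, which with 5 genes named out of 21755 does not show that the members differ. The promoter rank of Havcr2 is a tie shared by genes without a promoter peak, so density and footprint number alone set its nearest genes.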

How the data were processed

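Thymus DNase-seq was read from 4 kinds of list per library, on mm10 per the file headers and notes. The peak signal was deposited by the authors without a stated scale. Within a library every signal was a whole multiple of 1 step (0.00895 and 0.00652, within a tolerance of 0.1 steps), and the median peak held 186 and 219 steps, so that, were each step 1 independent cut, counting alone would give errors of 7.33% and 6.76%. The q-values per run of bases were deposited by the authors and used as they stand. Footprints carried the constant 0.01 as deposited, so positions alone were used. No aligner, peak caller or depth is given in the sources used here.

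A peak belonged to a span or promoter window if it overlapped it by at least 1 bp, and libraries shared a peak on the same rule. Promoter signal is the strongest peak within 1 kb of any basic start site. A peak was placed by its centre. Percentiles of peak and footprint density, and the ranks of likeness, are among 21755 protein-coding genes. Those of promoter signal are among the genes with a promoter peak in the same list and library. Where all peaks are named, percentiles are among the peaks of that list. Sequences came from GRCm38 with samtools 1.23.1, and the 4 promoter windows of these genes in a RefSeq table were identical to it. Motif backgrounds are windows of equal length at the peak centres of each shorter list. Counting, the step search and the motif search were checked on simulated data. Python 3.11.15 and numpy 2.4.6 were used.

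The members, gene lists and motifs were chosen with earlier results of these data known. Named are all 7 members, the 3 genes of highest mean promoter signal in each list and up to 5 of its genes without a peak, the strongest and the start-site peaks of each span, shorter-list peaks of 1 library only, and the 5 nearest genes per member. Further genes and peaks were named after their values were seen. Alternatives were window widths, flanks, the longer list, the stronger 50% of peaks, joined peaks, stricter overlap and each library alone.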

Additional observations from a re-analysis of the deposited data

How the results depend on the processing

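Some orders depended on the list. In the shorter lists the shared share of the members' peaks was below that of all peaks, and in the longer lists it was above (89.8% and 80% against 76.0% and 74.5%). By mean density Havcr2 passed Icos with the longer lists, at 6.79 against 6.41 per 100 kb. The number of receptor promoters open in both libraries was 5 and stayed 5 with windows of 500 or 2500 bp and with the start sites of the comprehensive annotation, the last chosen after seeing the data. It was 6 with the longer list and 3 with the stronger 50% of peaks (Cd28, Icos and Lag3), and ran from 5 to 6 with 1 library left out, since Tigit is open in replicate 2 alone. Of all protein-coding genes, 54.0% were open in both shorter lists and 58.5% in both longer lists. In the shorter list of replicate 1 alone the share was 55.7%, and in that of replicate 2 alone 55.3%. For the other settings no such share was computed, so the fall to 3 is not shown to be particular to these genes. The peaks of the 7 spans summed to a mean of 31.5 per library, to 9 without flanks and 52 with the longer list. Leaving out a library gave 30 to 33, and leaving out peaks at start sites of other protein-coding genes, chosen after seeing the data, gave 25.5. Footprints summed to 147.5, to 22.5 without flanks and to 76.5 when those without a counterpart in the other library were dropped, and with 1 library left out to between 137 and 158. The mean share of peaks found in both libraries was 73.2%, and it was 92.1% against the longer list of the other library and 87.5% for the stronger 50% of peaks. The median centred log2 ratio over the 23 pairs was 0.31, or 0.14 as deposited, where 15 pairs instead of 18 were above 0. Of 98 single-gene counts under these alternatives, 44 moved by over 1.5 times, mostly those of spans with few peaks; without replicate 1 the Icos and Havcr2 spans held 1 peak each instead of a mean of 2. No paired analysis was possible because there is 1 group. Depth is unknown, so a promoter without a peak, as at Havcr2, was not detectable here and is not shown to be closed.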
